A study of Rattus norvegicus with 6 samples.

Results

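miR-26 and miR-101 are a pair of microRNA (miRNA) families that are both reported to act on the mRNA of Ezh2. Their 4 mature sequences, miR-26a-5p, miR-26b-5p, miR-101a-3p and miR-101b-3p, were taken by name from 442 distinct mature sequences, of which 204 carried an established miRNA name and 238 a provisional one. Small RNA was sequenced from rat nucleus pulposus, the soft centre of the disc between adjacent vertebrae. In the IDD group (intervertebral disc degeneration, 3 libraries) the disc was under compression for 4 weeks. In the Sham group (3 libraries) the rats carried K-wires, thin metal pins, for 4 weeks. The labels give no strain, sex, age or number of animals per library, and name no allele or drug. They do not say whether the IDD rats carried pins, nor whether replicates are separate animals, so the p-values speak only for the spread among these libraries, which may be technical.

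A miRNA guides an Argonaute protein to mRNAs that pair with its seed, the bases near its 5′ end, and those mRNAs are then translated less or degraded. Ezh2 is the catalytic subunit of Polycomb repressive complex 2, which places a repressive methyl mark on histone H3. miR-101 was described as a repressor of EZH2 in human prostate cancer cells, and miR-26a as a repressor of Ezh2 in mouse muscle precursor cells. The miR-26 genes lie within genes for small C-terminal domain phosphatases and are thought to be transcribed with them. Ezh2 mRNA was not measured in these small RNA libraries.

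The mature sequences are shown first because the groups differ by family, and a family is set by its seed. They are written 5′ to 3′ with the seed (bases 2 to 8) in capitals.

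miR-26a-5p: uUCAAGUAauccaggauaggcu

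miR-26b-5p: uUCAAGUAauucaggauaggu

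miR-101a-3p: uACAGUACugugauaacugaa

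miR-101b-3p: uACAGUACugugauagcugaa

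The miR-26 sequences share the seed UCAAGUA, which pairs with uacuuga in a target, and the miR-101 sequences share ACAGUAC, which pairs with guacugu. None of the other sequences of the table had either seed, nor the same bases 2 to 7. Counted from 1 at the 5′ end, miR-26a-5p (22 nt) and miR-26b-5p (21 nt) differ by C11U and C21U, besides the extra 3′ base of miR-26a-5p. miR-101a-3p and miR-101b-3p (21 nt each) differ by A16G alone. Since 1 base tells the miR-101 sequences apart, tags of one could have been counted as the other. The size of such an exchange was not tested.

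All 4 names matched RefSeq (assembly GRCr8), with an identical mature sequence in each case. The hairpins that RefSeq gives for them are printed with the counted arm in capitals, to show that miR-26 is cut from the 5′ side of its hairpin and miR-101 from the 3′ side.

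Mir26a: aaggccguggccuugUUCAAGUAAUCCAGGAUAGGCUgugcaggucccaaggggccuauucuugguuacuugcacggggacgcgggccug

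Mir26b: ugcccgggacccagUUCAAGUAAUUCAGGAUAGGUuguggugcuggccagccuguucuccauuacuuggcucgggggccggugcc

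Mir101a: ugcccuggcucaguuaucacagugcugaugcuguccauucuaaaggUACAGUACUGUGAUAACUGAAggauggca

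Mir101-2 (miR-101b): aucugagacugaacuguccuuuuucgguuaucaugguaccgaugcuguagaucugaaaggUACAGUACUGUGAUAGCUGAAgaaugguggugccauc

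In GRCr8 the counted sequences lie at chr8:127633063-127633084 (+) for miR-26a-5p, chr9:83425723-83425743 (+) for miR-26b-5p, chr5:121081691-121081711 (-) for miR-101a-3p and chr1:236273982-236274002 (+) for miR-101b-3p. Mir26a lies within the span of Ctdspl and Mir26b within that of Ctdsp1, both phosphatase genes. Mir101-2 lies within Rcl1, which has a role in ribosomal RNA processing. For Mir101a no protein-coding gene of that annotation spans the hairpin. Whether the hairpins are intronic was not looked up, since the table gives gene spans only. The other arms of these hairpins were not analysed here.

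Library totals were 169783 to 253807 tags. Tags under established names made up 77.8% to 83.1% of the tags in IDD but 49.5% to 56.2% in Sham, so a share of all tags moves with the provisionally named tags. The share of established-name tags is therefore given first. That denominator also moves, because the muscle miRNA miR-1b held 47.8% to 51.9% of established-name tags in IDD and 40.2% to 40.7% in Sham. Among markers of the tissue, the cartilage miRNAs miR-140 and miR-455 both had tags and held 15.3% to 15.9% of established-name tags in IDD and 15.4% to 18.1% in Sham. Of the marker lists for other cell types, skeletal muscle (5 of 6 markers listed, none for miR-133b) held 48.0% to 52.2% in IDD and 40.4% to 40.9% in Sham. Nearly all of this was miR-1b, so the sum says little about the other muscle markers. Liver (miR-122) held 0.967% to 1.06% and 1.35% to 1.53%, and red blood cell (2 of 3 listed, none for miR-144) 0.0909% to 0.104% and 0.161% to 0.176%. Leukocyte (3 of 5 listed, none for miR-142 and miR-155) held 0.0108% to 0.0127% and 0.00811% to 0.0105%, and smooth muscle (miR-143 and miR-145) 0.0103% to 0.0129% and 0.0191% to 0.0243%. Epithelium (miR-200a alone of 5) was blank in IDD and held 0.0215% to 0.0671% in Sham, and the endothelial miR-126 had no row. The part of these cell types in the values below was not tested. In bulk tissue, fewer cells of a type and less RNA per cell cannot be told apart.

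The families moved in opposite directions. Both miR-26 sequences rose in IDD and both miR-101 sequences fell. All 4 passed the filter on low counts, and all 4 passed an adjusted p below 0.05. Of the 131 tested sequences 59.5% passed as well, with 29.0% higher and 30.5% lower, so the number of calls does not set these 4 apart. Of the 108 tested established miRNAs, 57.4% passed, with 33.3% higher and 24.1% lower. Fold changes below are on CPM, the depth-adjusted tag level after TMM scaling, and adjusted p-values are from edgeR's quasi-likelihood test with Benjamini-Hochberg adjustment over the 131 sequences.

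miR-26a-5p was the most abundant of the 4. Its tag counts were 10198, 7280 and 11054 in IDD 1, 2 and 3, against 5208, 6201 and 4423 in Sham 1, 2 and 3. As a share of established-name tags it held 4.98%, 4.93% and 6.33% in IDD and 4.15%, 4.57% and 4.64% in Sham. Every IDD library was above every Sham library, and IDD 3 stood highest. It ranked 3rd among established miRNAs in each IDD library and 5th, 4th and 4th in Sham 1, 2 and 3. Scaled levels were 40912 ± 4605 CPM in IDD and 25158 ± 824 CPM in Sham (SD, n = 3 each), a 1.63-fold rise (log2 0.70, SE 0.11, adjusted p = 0.000100).

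miR-26b-5p, its close paralogue, was counted far less often. It had 556, 371 and 507 tags in IDD 1, 2 and 3 and 287, 342 and 221 in Sham 1, 2 and 3. Its shares of established-name tags were 0.272%, 0.251% and 0.290% in IDD and 0.229%, 0.252% and 0.232% in Sham. These shares overlapped, since IDD 2 lay just below Sham 2. Scaled levels did not overlap between the groups, as for 66.4% of the 131 tested sequences. They were 2053 ± 137 CPM in IDD and 1344 ± 96.0 CPM in Sham (SD, n = 3 each), a 1.53-fold rise (log2 0.61, SE 0.11, adjusted p = 0.000328).

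miR-101a-3p carried most of the miR-101 tags. Its counts were 3074, 3010 and 4162 in IDD 1, 2 and 3 and 4903, 5141 and 3115 in Sham 1, 2 and 3. It held 1.50%, 2.04% and 2.38% of established-name tags in IDD and 3.90%, 3.79% and 3.26% in Sham. The groups were well separated on this scale, with IDD 1 the lowest library, yet miR-101a-3p ranked 7th among established miRNAs in all 6 libraries. On scaled levels the groups nearly met, at 17347 CPM in IDD 3 and 17562 CPM in Sham 3. The scaled means were 14875 ± 2764 CPM in IDD and 20737 ± 2840 CPM in Sham (SD, n = 3 each), a 1.39-fold fall (log2 −0.48, SE 0.15, adjusted p = 0.0134). This call was lost in 4 of 15 alternatives, which include the fit without IDD 1 (log2 −0.34, adjusted p = 0.0633) and that without Sham 2 (log2 −0.49, adjusted p = 0.115), within a range of adjusted p from 7.40e-05 to 0.150.

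miR-101b-3p showed the larger fall. Its counts were 202, 196 and 232 in IDD 1, 2 and 3 and 427, 383 and 255 in Sham 1, 2 and 3. It held 0.0987%, 0.133% and 0.133% of established-name tags in IDD and 0.340%, 0.282% and 0.267% in Sham. Every IDD share was below every Sham share. Its rank among established miRNAs was 43rd, 41st and 41st in IDD and 27th, 29th and 32nd in Sham. Scaled levels were 917 ± 119 CPM in IDD and 1685 ± 291 CPM in Sham (SD, n = 3 each), a 1.85-fold fall (log2 −0.88, SE 0.14, adjusted p = 0.000184).

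**Figure D1:**
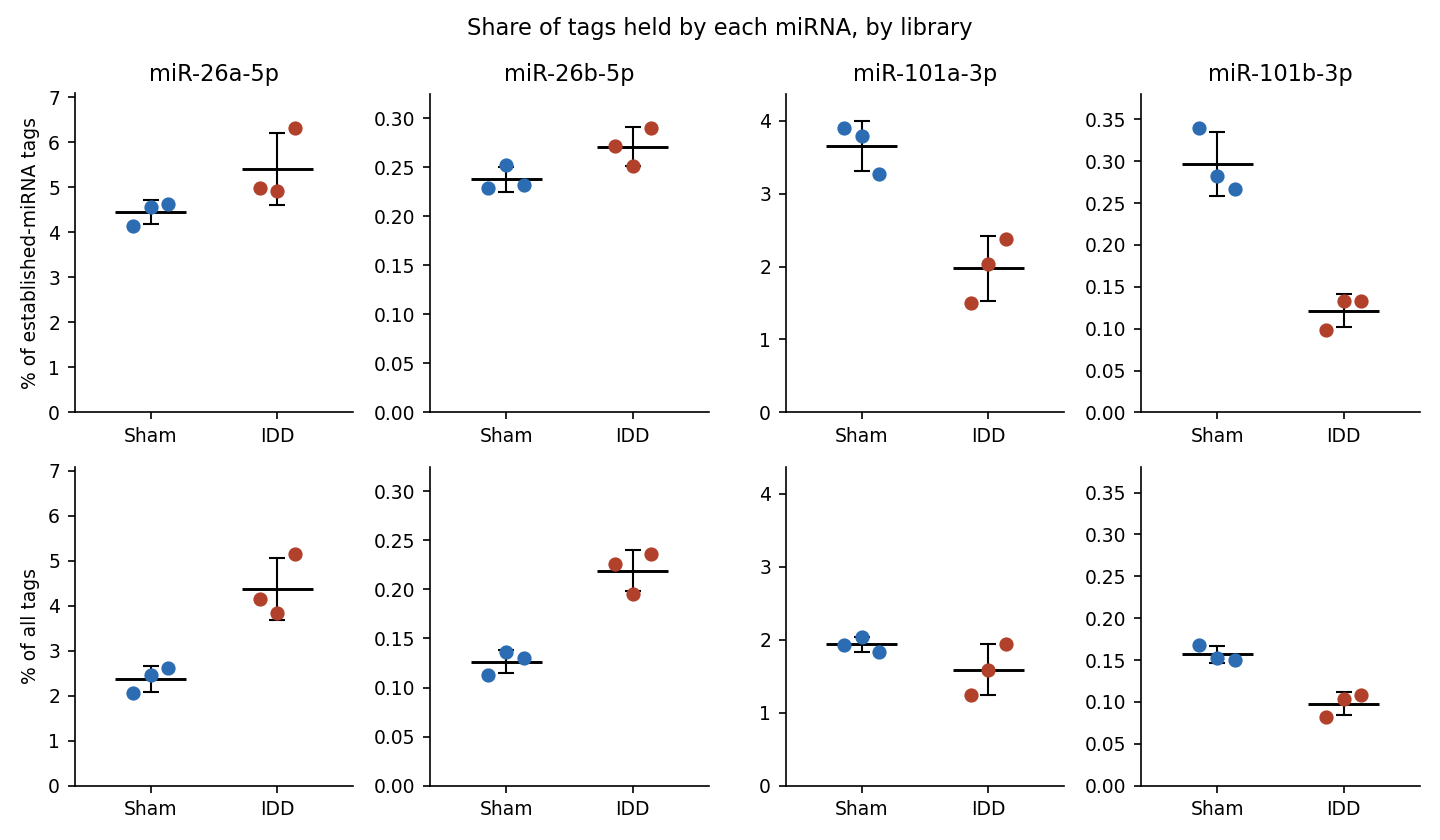
Share of tags (%) held by each of the 4 miRNAs, over tags of established miRNAs (top) and over all tags (bottom), with 1 point per library and the mean and SD (n = 3 per group) as bars. Over established-name tags miR-101a-3p lies at 1.50% to 2.38% in IDD and 3.26% to 3.90% in Sham, whereas over all tags its groups overlap.

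The size of each change, but not its direction, depended on what the tags were counted against. Over established-name tags, the mean share of miR-26a-5p was 5.41% ± 0.793 in IDD and 4.45% ± 0.266 in Sham, 1.22 times as high. The 95% exact (Clopper-Pearson) interval of a library's share reached at most 0.135 percentage points from it. Without IDD 3 the difference of 0.961 percentage points was 0.503. For miR-26b-5p the shares were 0.271% ± 0.0195 and 0.237% ± 0.0129. For miR-101a-3p they were 1.97% ± 0.444 and 3.65% ± 0.341, 1.85 times as high in Sham, with intervals reaching at most 0.115 points. For miR-101b-3p they were 0.121% ± 0.0197 and 0.297% ± 0.0384, 2.44 times as high in Sham. The exact two-sided permutation test gave p = 0.1 for miR-26a-5p and both miR-101 sequences, the smallest p that 3 against 3 libraries allow, and p = 0.2 for miR-26b-5p. Of the 108 tested established miRNAs, 68.5% had shares of established-name tags that did not overlap between the groups, 19.4% with IDD above Sham and 49.1% below.

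Over all tags the miR-26 difference was wider and the miR-101 difference narrower. miR-26a-5p held 4.37% ± 0.687 in IDD against 2.37% ± 0.287 in Sham, and miR-26b-5p 0.219% ± 0.0211 against 0.126% ± 0.0119 (exact two-sided permutation test, p = 0.1 for each). miR-101a-3p held 1.25%, 1.59% and 1.94% in IDD 1, 2 and 3 and 1.93%, 2.04% and 1.83% in Sham 1, 2 and 3. IDD 3 thus lay within the Sham values, and the group difference was not shown (exact two-sided permutation test, p = 0.3). miR-101b-3p held 0.0978% ± 0.0139 and 0.157% ± 0.00990 (p = 0.1 by the same exact test). On this scale too 68.5% of the 108 did not overlap, but with 49.1% above and 19.4% below, the mirror of the split over established-name tags. With miR-1b left out of the established-name total, a setting added after the values were seen, the groups did not overlap for any of the 4, with miR-26a-5p at 10.8% ± 1.14 in IDD and 7.47% ± 0.417 in Sham and miR-101a-3p at 3.94% ± 0.742 and 6.13% ± 0.584. On that denominator 62.6% of the 107 tested established miRNAs other than miR-1b did not overlap, 29.0% with IDD above Sham and 33.6% below.

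**Figure D2:**
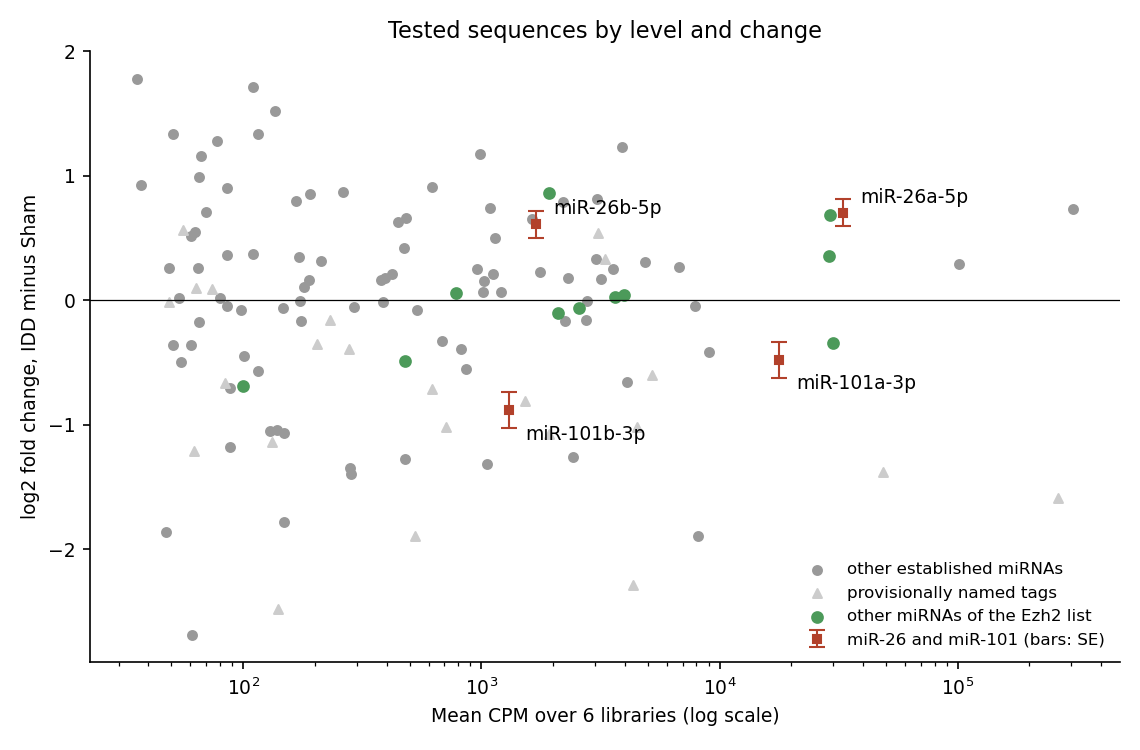
Log2 fold change (IDD minus Sham) against the mean CPM over the 6 libraries (log scale) for 129 of the 131 tested sequences, leaving out 2 that were blank throughout a group. The 2 miR-26 points (log2 0.70 and 0.61) lie above 0 and the 2 miR-101 points (−0.48 and −0.88) below it, inside the range of the other sequences.

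A ratio of counts within a library needs no scaling between libraries, so it compares the families without a choice of denominator. The summed miR-26 counts were 3.28, 2.39 and 2.63 times the summed miR-101 counts in IDD 1, 2 and 3. In Sham 1, 2 and 3 this ratio was 1.03, 1.18 and 1.38. The families were therefore closer in tag number in Sham than in IDD, with no overlap, and miR-26 was the larger in every library. The mean ratio was 2.77 ± 0.463 in IDD and 1.20 ± 0.174 in Sham (SD, n = 3 each), a 2.31-fold difference. On the log2 scale the groups differed by 1.20 with a within-group SD of 0.22. From the summed counts of each group (29966 against 10876 in IDD, 16682 against 14224 in Sham) the ratios were 2.76 (95% exact counting interval 2.70 to 2.82) and 1.17 (1.15 to 1.20). The exact two-sided permutation test gave p = 0.1, the smallest it can give, and 0.117 after Benjamini-Hochberg adjustment over the 7 ratios computed.

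The less abundant pair changed places. miR-26b-5p had 2.75, 1.89 and 2.19 tags for each miR-101b-3p tag in IDD 1, 2 and 3, but 0.672, 0.893 and 0.867 in Sham 1, 2 and 3. It was the more abundant of the pair in all 3 IDD libraries and the less abundant in all 3 Sham libraries (exact two-sided permutation test, p = 0.1, adjusted p = 0.117). In the more abundant pair, miR-26a-5p exceeded miR-101a-3p in every library, by 2.80 ± 0.466 times in IDD and 1.23 ± 0.180 times in Sham (SD, n = 3 each). The order of tag counts in IDD was thus miR-26a-5p, miR-101a-3p, miR-26b-5p, miR-101b-3p, and in Sham the last pair was reversed. In each group the shares of neighbours in that order did not overlap. These are orders of tag counts of sequences 21 or 22 nt long.

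The ratio of the paralogues was compared within each family, and whether the families differ in it was not tested. miR-26a-5p had 18.3, 19.6 and 21.8 tags for each miR-26b-5p tag in IDD 1, 2 and 3 and 18.1, 18.1 and 20.0 in Sham 1, 2 and 3. The mean log2 ratio differed by 0.08, less than the within-group SD of 0.11 (exact two-sided permutation test, p = 0.5). The groups overlapped, although the IDD ratio was above the Sham ratio of the same number in 3 of 3 pairs (exact two-sided sign-flip test, p = 0.25, the smallest that 3 pairs allow and also the value for the miR-101 ratio below). The summed counts gave 19.9 (95% counting interval 18.9 to 21.0) in IDD and 18.6 (17.4 to 20.0) in Sham. miR-101a-3p had 15.2, 15.4 and 17.9 tags for each miR-101b-3p tag in IDD 1, 2 and 3 and 11.5, 13.4 and 12.2 in Sham 1, 2 and 3. All IDD ratios were above all Sham ratios, with a log2 difference of 0.38 against a within-group SD of 0.12, a 1.31-fold difference (exact two-sided permutation test, p = 0.1, adjusted p = 0.117). The summed counts gave 16.3 (15.0 to 17.7) in IDD and 12.4 (11.6 to 13.2) in Sham. miR-101b-3p thus made up 5.28% to 6.17% of miR-101 tags in IDD and 6.93% to 8.01% in Sham.

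These ratios are not rare in size. Of the 5565 pairs that can be formed from the 106 tested established miRNAs listed in all libraries, 66.2% had ratios that did not overlap between the groups, and the median absolute log2 difference was 0.71. A larger difference than that of miR-26a-5p over miR-101a-3p (log2 1.18) was found in 28.4% of the pairs, and a larger one than that of miR-26b-5p over miR-101b-3p (log2 1.48) in 18.1%. For miR-101a-3p over miR-101b-3p the figure was 71.1%, and for miR-26a-5p over miR-26b-5p it was 93.2%.

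**Figure D3:**
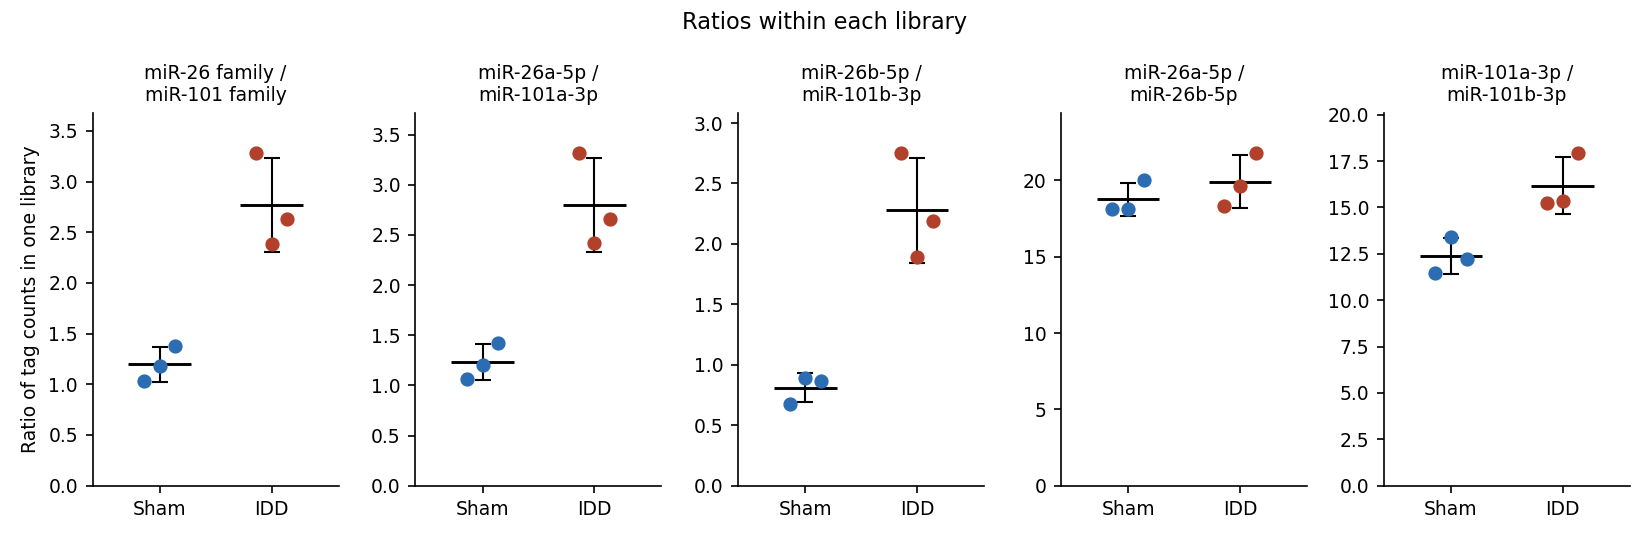
Ratios of tag counts within a library, with 1 point per library and the mean and SD (n = 3 per group) as bars. The miR-26 to miR-101 ratio is 1.03 to 1.38 in Sham and 2.39 to 3.28 in IDD, whereas the miR-26a-5p to miR-26b-5p ratio overlaps between the groups.

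Libraries of a group also differed from each other by family. Over established-name tags, Sham 1 had the lowest shares of both miR-26 sequences and the highest shares of both miR-101 sequences among the Sham libraries. On the same scale IDD 1 had the lowest shares of both miR-101 sequences among all 6 libraries, and IDD 3 the highest share of both miR-26 sequences. The joint share of both families in established-name tags was 6.85%, 7.35% and 9.13% in IDD 1, 2 and 3 and 8.62%, 8.90% and 8.40% in Sham 1, 2 and 3. These values overlapped (mean 7.78% ± 1.20 in IDD and 8.64% ± 0.250 in Sham, SD, n = 3 each). The exact two-sided permutation test gave p = 0.4. Over all tags the joint share was 6.28% ± 0.994 in IDD and 4.59% ± 0.286 in Sham (SD, n = 3 each). There the groups did not overlap (exact two-sided permutation test, p = 0.1), beside 68.5% of the 108 tested established miRNAs on that scale. The direction of the joint difference thus depended on the denominator.

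Other miRNAs reported to act on Ezh2 were called in both directions, in shares near those over all sequences. Of 17 on a list drawn up with earlier results of these data known, 12 had a row and 11 could be tested, of which 3 were higher in IDD, 3 were lower and 5 did not pass. Of all 131 tested sequences 29.0% were higher and 30.5% lower, and of the 108 established miRNAs 33.3% and 24.1%. The median log2 fold change of the 11 was 0.03, beside 0.03 over the 131 and 0.16 over the 108. Of those tested, 9 belong to the let-7 and miR-98 family, which shares a seed, so they are not independent members. miR-30d-5p rose from 1376 ± 85.1 to 2489 ± 184 CPM (SD, n = 3 each, log2 0.86, SE 0.11, edgeR adjusted p = 2.37e-05). Rises were also called for let-7g-5p (1.61-fold, log2 0.69) and let-7f-5p (1.28-fold, log2 0.36), and a fall for let-7i-5p (1.27-fold, log2 −0.34), of which the calls of let-7f-5p and let-7i-5p were lost in 4 and 5 of 15 alternatives (adjusted p up to 0.184 and 0.490). miR-214-3p, known to repress Ezh2 in mouse muscle cells, had 6, 9 and 5 tags in IDD 1, 2 and 3 and was blank in Sham, too few to be tested.

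The sequences nearest in pattern were sought by the root mean square distance of log2 CPM, centred over the 6 libraries, among 102 other tested established miRNAs. Nearest to miR-26a-5p were miR-30b-5p (distance 0.07), miR-191a-5p (0.09) and let-7g-5p (0.11). Its paralogue miR-26b-5p lay at 0.10, with 2 of the 102 nearer. Nearest to miR-101a-3p were miR-450b-5p (0.09), miR-210-3p (0.14) and miR-23b-3p (0.17). miR-101b-3p lay at 0.22, with 8 of the 102 nearer. With 6 libraries in 2 groups, this distance mostly reflects the group difference.

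**Figure D4:**
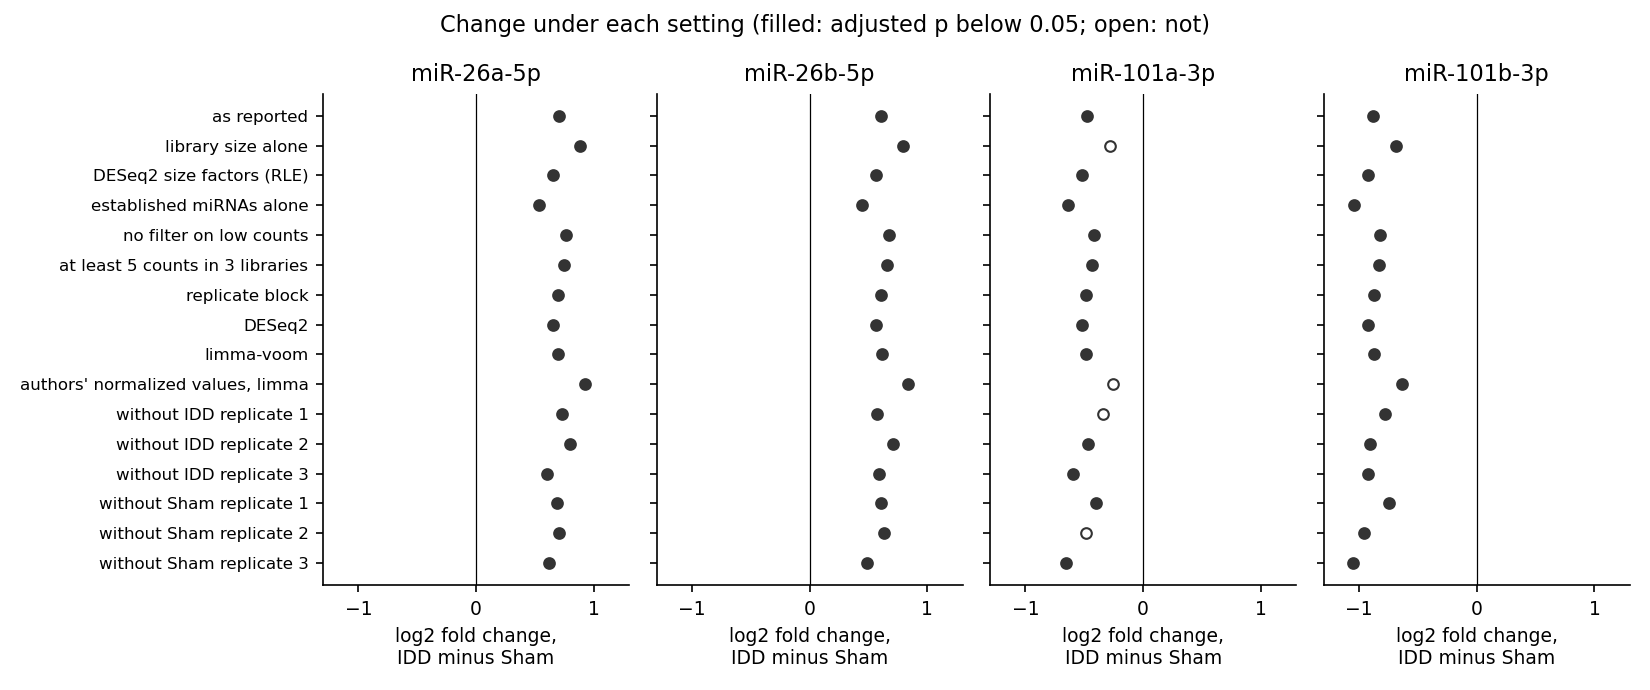
Log2 fold change (IDD minus Sham) of each of the 4 miRNAs as reported and under 15 alternatives, with filled points for an adjusted p below 0.05 and open points otherwise. The direction is the same under every setting shown. The calls of miR-26a-5p, miR-26b-5p and miR-101b-3p hold throughout, and that of miR-101a-3p is lost in 4.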

How the data were processed

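Adaptor-ligated small RNA of about 22 nt was read for 50 cycles, per the labels' protocols. Per the file headers, one deposited table gives a raw tag count for each mature miRNA and library. Of the tools used upstream, the submitters' processing notes list Novoalign 3.02.12 and cutadapt 1.9.3, with the genome build Rnor_6.0 and no roles. No caller of miRNAs is named. The other deposited table, of values that the authors normalized and rounded (handled as a score), is proportional to the raw table within each library, and served as an alternative alone. RefSeq positions are on GRCr8, not on the submitters' build.

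The 491 rows were reduced to 442 distinct sequences. Blank cells were set to 0 (the lowest listed count was 2). With edgeR 4.0.16 in R 4.3.3, a minimum count of 10 in filterByExpr left 131, TMM gave the scaling, and the two-sided robust quasi-likelihood test was read at an adjusted p below 0.05. The SE was obtained by dividing the size of the log2 fold change by the root of F. Shares and log2 ratios were compared by exact two-sided permutation over libraries. Intervals reflect counting error alone (PCR duplicates are included), and 3 counts were worth 11.6 to 16.9 CPM.

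The members, lists and tests were chosen with earlier results of these data known. Named miRNAs were every member, sequences sharing a member's seed, up to 4 tested miRNAs of the Ezh2 list by lowest adjusted p, and the 3 nearest in pattern to each family's most abundant member. miR-214-3p was named after its values were seen. The ratios first set out were those of the paralogues and of the family sums. Ratios of a single miR-26 to a single miR-101 sequence were added to them, and are among the 7 adjusted over. Deviations of same-numbered libraries from their group means had correlations of 0.111, 0.112 and 0.204. The replicate number was therefore used as a pairing in alternatives alone (replicate block, sign flips). The main fit and the permutation tests were unpaired. No label states this pairing, and IDD 2 with Sham 1, of unlike numbers, gave 0.109. Alternatives were other scalings and filters, DESeq2 1.42.0, limma-voom and limma 3.58.1 on the authors' values plus 1, the replicate block, other totals and each library left out in turn. Plots were drawn with matplotlib 3.10.9.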

Additional observations from a re-analysis of the deposited data

How the results depend on the processing

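The direction of each of the 4 miRNAs was kept in all 15 alternative fits, and the calls of miR-26a-5p (log2 0.54 to 0.93), miR-26b-5p (0.45 to 0.84) and miR-101b-3p (−1.05 to −0.64) were kept in all of them. The call of miR-101a-3p was lost with library size alone (log2 −0.28, adjusted p = 0.117) and on the authors' normalized values (−0.25, adjusted p = 0.150), which move the median of all tested sequences by 0.19 and 0.26, and without IDD 1 or Sham 2. Its log2 fold change with a library left out ranged from −0.66 to −0.34. Over the sequences tested in both fits, established miRNAs alone moved the median by −0.16 and leaving out Sham 3 by −0.12. With the replicate block miR-26a-5p was at 0.70, miR-26b-5p at 0.61, miR-101a-3p at −0.49 and miR-101b-3p at −0.88, 39 sequences were higher and 41 lower, and no call of the 4 changed. Blocked shares and ratios have a smallest p of 0.25.

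The 38 higher and 40 lower calls, 59.5% of 131, were 117 and 168, 64.5% of 442, with no filter on low counts. The calls were 24 to 36 higher and 34 to 42 lower with a library left out, 52 and 29 with library size alone and 56 and 28 on the authors' values. With tags ending in CCA left out of the total, the difference in share (IDD minus Sham, percentage points) was 1.03 for miR-26a-5p, 0.0378 for miR-26b-5p, −1.56 for miR-101a-3p and −0.164 for miR-101b-3p, and 1.07 and −1.72 for the families, in place of 2.00, 0.0927, −0.346, −0.0591, 2.09 and −0.405 over all tags. With repeated rows summed as listed, which enlarges the totals, it was −0.0408 for miR-101a-3p, −0.0291 for miR-101b-3p and −0.0699 for the miR-101 family. With miR-1b left out of the established-name total it was 3.36, 0.145, −2.19 and −0.255, and 3.51 and −2.44 for the families. Without IDD 1 the miR-101a-3p difference over all tags was −0.174. The 7 ratios moved by less than their within-group SD in all 63 recomputed values. No arm ratio was computed, since only 1 arm of each hairpin was counted. Depth limits miR-26b-5p and miR-101b-3p most, at 196 to 556 tags a library.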
